A study of Mus musculus with 2 samples.

Results

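The members were the 8 genes for RFX-family and ciliogenesis transcription factors, Rfx1 to Rfx7 and Foxj1, among 15862 protein-coding genes with a measured promoter region. Their chromatin was taken as every peak within 500 bp of a transcription start site of these genes or inside their gene bodies (mm10), which gave 77 peaks in the Control library and 107 in the MOF cKO library. Over the whole genome the libraries held 249679 and 340134 peaks, so MOF cKO had more peaks at large as well. Merged across libraries these peaks formed 113 regions of 369634 in all. Of the 113, 71 had a peak in each library, 36 only in MOF cKO and 6 only in Control. Of all 369634 regions, 214119 had a peak in each library. Open DNA was mapped by a transposase that cuts it (single-cell ATAC-seq) in E16.5 embryonic back skin, in 1 Control and 1 MOF cKO library. The MOF cKO genotype was MOFfl/fl/K14Cre: Cre under the Krt14 promoter, which acts in skin epithelium, deletes the floxed gene for MOF (Kat8), the acetyltransferase of lysine 16 on histone H4. In both libraries, cells carrying the K14-H2BGFP reporter were sorted from cells without it, and the GFP-positive and GFP-negative fractions were pooled again, by the labels 5 parts to 1 part, although the study's text gives other ratios. The labels give the Control genotype only as Control, and the study's methods say that controls were littermates. Because Cre is restricted to epithelium, the fibroblast and immune cells of the MOF cKO library are not themselves expected to be recombined, but they come from the same mutant skin.

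RFX proteins bind the X-box, a pair of inverted arms, through a winged-helix domain. RFX1, RFX2 and RFX3 activate genes for the assembly of cilia, and RFX2 and RFX3 act with the forkhead factor FOXJ1 in cells with motile cilia. RFX4 acts in the brain, RFX6 in pancreatic endocrine cells and the gut, RFX5 as the DNA-binding subunit of the complex that switches on MHC class II genes, and RFX7 in genes of growth and p53 control. Skin epithelial cells carry a single primary cilium, which takes part in Hedgehog signalling and hair follicle formation.

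The Control library held 2541 barcodes with 169641002 transposition sites in its peaks and the MOF cKO library 4348 barcodes with 324310197 sites, and the median per barcode was 62973 and 66239.5 sites. Both libraries shared 21 barcodes. Marker promoters gave 1385 Control and 2577 MOF cKO epithelial-like cells, 653 and 1244 fibroblast-like cells and 48 and 282 immune-like cells. Mural-like (19 and 69 cells) and endothelial-like cells (15 and 98) were too few in Control to compare, and 361 and 78 cells stayed unnamed. Clustering left out 88 regions in and near the 8 genes, so the members did not set these classes. Epithelial-like cells of the libraries lay almost wholly in different clusters, Control in clusters 1, 4 and 12 and MOF cKO in clusters 0, 2, 5 and 14. Clusters 12 and 14 had median doublet scores of 0.86 and 0.92. Sites at the Kat8 promoter were 48.8 CPM in Control and 36.6 CPM in MOF cKO epithelial-like cells (log2 change -0.41), and since the labels do not say which part of the gene is deleted, this promoter does not check the deletion. With 1 library per genotype no difference was tested. Intervals are 95% intervals that cover counting error only, and CPM values scale the sites of a region to the total over shared regions of the class.

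The promoter stretches of 4 members are shown, Rfx7, Rfx1 and Rfx5 for the largest changes by sites in epithelial-like cells and Rfx2 for its X-box, from the RefSeq promoter table (GRCm38.p6), which matched 7 of the 8 genes with 8 sequences. Foxj1 had no entry there. Each stretch covers up to 250 bases before the annotated start, 5′ to 3′ on the gene's own strand, and capitals mark a CCAAT box or an X-box. They are Rfx7 (chr9:72531990-72532239, plus strand), Rfx1 (chr8:84066586-84066833, plus strand), Rfx5 (chr3:94953858-94954074, plus strand) and Rfx2 (chr17:56831014-56831258, minus strand).
Rfx7: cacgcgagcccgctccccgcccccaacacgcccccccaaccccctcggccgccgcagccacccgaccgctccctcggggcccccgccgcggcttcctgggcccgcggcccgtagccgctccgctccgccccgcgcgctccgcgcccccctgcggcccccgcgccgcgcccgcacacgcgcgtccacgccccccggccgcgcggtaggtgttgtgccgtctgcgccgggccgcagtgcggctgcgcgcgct
Rfx1: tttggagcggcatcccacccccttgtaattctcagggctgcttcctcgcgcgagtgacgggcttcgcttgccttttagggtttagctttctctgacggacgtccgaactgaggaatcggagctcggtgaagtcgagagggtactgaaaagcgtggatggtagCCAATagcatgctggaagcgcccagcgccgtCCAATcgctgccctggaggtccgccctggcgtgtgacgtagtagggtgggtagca
Rfx5: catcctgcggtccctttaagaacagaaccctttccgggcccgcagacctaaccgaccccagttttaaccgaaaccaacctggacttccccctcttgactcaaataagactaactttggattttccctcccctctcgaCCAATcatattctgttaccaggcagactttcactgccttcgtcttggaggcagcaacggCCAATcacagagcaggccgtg
Rfx2: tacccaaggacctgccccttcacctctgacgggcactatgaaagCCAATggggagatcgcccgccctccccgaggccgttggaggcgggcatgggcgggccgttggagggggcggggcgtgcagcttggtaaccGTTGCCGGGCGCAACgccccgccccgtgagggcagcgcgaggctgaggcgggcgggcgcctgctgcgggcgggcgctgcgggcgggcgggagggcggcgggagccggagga

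The Rfx7 stretch was 84.4% G and C and held neither motif. Rfx1 and Rfx5 each held 2 CCAAT boxes, the element bound by NF-Y, which is the partner of RFX5 at MHC class II promoters. Rfx2 held 1 CCAAT box and the only X-box among the 8 member sequences (arms 1 to 3 bases apart, at most 1 mismatch, both strands). A CCAAT box on either strand was found in 4 of the 8 member sequences and in 33.8% of 32851 RefSeq promoter stretches, and an X-box in 1 of 8 and in 7.87%. Over the whole promoter regions, which are wider, the CCAAT box was in 7 of 8 (63.0% of 18975 promoter regions), the X-box in 4 of 8 (Rfx1, Rfx2, Rfx3 and Foxj1; 23.1%), the AP-1 motif TGACTCA in 1 of 8 (Rfx5; 13.3%) and the forkhead motif GTAAACA in 0 of 8 (7.67%), each on either strand. Matches describe letters in these windows and are not measured binding.

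All members had 1 promoter region with a peak in each library. In Control epithelial-like cells, promoter accessibility per length was highest at Rfx1 (79.8 CPM per kb), followed by Rfx2 (70.9), Rfx3 (62.1), Rfx5 (52.7), Rfx7 (46.2) and Foxj1 (27.9). Rfx6 (5.08 CPM per kb) and Rfx4 (4.70) lay far below the rest. The promoters therefore fell into a broadly open group of 6 and a pair, Rfx4 and Rfx6, that was nearly closed in skin.

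**Figure D1:**
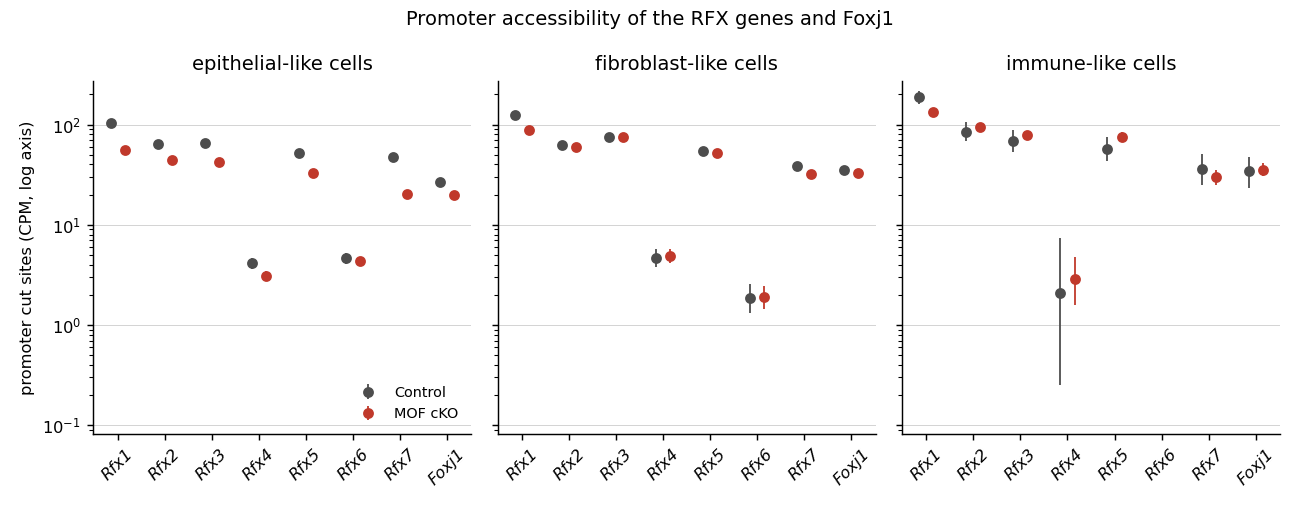
Promoter accessibility of the 8 genes in CPM (log axis) in epithelial-like, fibroblast-like and immune-like cells of each library; bars on points are 95% counting intervals. Rfx4 and Rfx6 sit below the other genes in every class shown, Rfx6 is not drawn in immune-like cells, where Control had 0 sites, and in epithelial-like cells the MOF cKO point lies below the Control point for all 8 genes (Rfx6 turned with median-of-ratios scaling and Rfx4 in thinned cells), with overlapping intervals only for Rfx6.

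Every member promoter was lower in MOF cKO than in Control epithelial-like cells, with a median log2 change of -0.58, except that Rfx6 turned to 0.06 with median-of-ratios scaling and Rfx4 to 0.63 in thinned cells. A lower level was also seen at 85.7% of all promoters, whose median was -0.42, so changes below are also given relative to that median. Of the 8, 6 lay below it, 1 (Rfx7) was lower by 2-fold or more against a background of 2.48% of promoters, and 0 were higher by 2-fold or more against 2.24%. Under other scalings of depth the median of all promoters ranged from -0.57 to -0.27, which leaves the relative values unmoved.

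Rfx7 showed the deepest difference. Its promoter region (chr9:72531354-72532393), which overlaps the long noncoding RNA 4930509E16Rik, had 48.0 CPM in Control and 20.1 CPM in MOF cKO epithelial-like cells. The log2 change was -1.25 (interval -1.34 to -1.17), or -0.84 relative to all promoters, at percentile 0.961 of all promoters. Across the processing alternatives the relative value stayed between -0.85 and -0.72. The called peaks were of similar width, 988 bp in Control and 953 bp in MOF cKO, and per base the change was -1.20. In fibroblast-like cells the promoter had 39.0 CPM in Control and 32.3 CPM in MOF cKO, a log2 change of -0.27 (-0.41 to -0.14).

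Rfx1 had the next largest difference in sites, and its peak width differed between libraries. Its promoter region (chr8:84066285-84067586), which overlaps the antisense gene C330011M18Rik, had 103.9 CPM in Control and 55.4 CPM in MOF cKO epithelial-like cells (log2 -0.91, -0.96 to -0.85). The peak called there was 1284 bp wide in Control and 790 bp in MOF cKO, so sites outside the narrower peak were not counted in MOF cKO. Per base of each library's own peak the epithelial-like change was -0.21 (80.9 and 70.2 CPM per kb), which placed Rfx1 0.22 above the median of all promoters instead of 0.49 below it. In fibroblast-like cells the same region went from 123.5 CPM to 89.2 CPM (-0.47) by sites and had a change of 0.23 per base. The direction of Rfx1 relative to other promoters thus turned with the handling of width. Both measures cover unlike stretches in the libraries, so neither gives the change free of the peak call. The same peaks served every class, so dividing by width shifts each class equally and cannot change the gap between classes. Relative to all promoters of the class, Rfx1 was at -0.49 by sites in epithelial-like cells and at -0.44 in fibroblast-like cells.

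Rfx5, Rfx3 and Rfx2 formed a middle group with peaks of nearly equal width in both libraries. Rfx5, the MHC class II regulator, had 51.9 CPM in Control and 32.9 CPM in MOF cKO epithelial-like cells (-0.66, -0.73 to -0.59). Rfx3 had 65.0 and 42.8 CPM (-0.60, -0.67 to -0.54), and Rfx2 had 64.5 and 44.1 CPM (-0.55, -0.61 to -0.49). Relative to all promoters Rfx5 stayed between -0.30 and -0.20 and Rfx3 between -0.19 and -0.17 under every alternative run, whereas Rfx2 ranged from -0.13 to 0.07. In fibroblast-like cells all 3 were close to no change, at -0.06 for Rfx5, 0.00 for Rfx3 and -0.07 for Rfx2, with intervals that held 0. Scaled as sites per cell they were at -0.35, -0.29 and -0.36 there, with the median of all promoters at -0.32.

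Foxj1, the forkhead regulator of motile cilia, had 26.8 CPM in Control and 19.6 CPM in MOF cKO epithelial-like cells (-0.45, -0.54 to -0.35). Relative to all promoters it was at -0.03, but at 0.18 per base of each own peak and at 0.13 in thinned cells. Its peak was 959 bp wide in Control and 836 bp in MOF cKO, and per base the change was -0.25. In fibroblast-like cells Foxj1 had 35.4 and 32.9 CPM (-0.10, -0.24 to 0.04), and the change there turned to 0.09 per base and to 0.17 in thinned cells.

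The nearly closed pair differed least in sites. Rfx4 had 4.12 CPM in Control and 3.08 CPM in MOF cKO epithelial-like cells (-0.42, -0.67 to -0.17), from 477 and 634 sites. This value turned to 0.63 when each cell was thinned to 5000 sites. Thinning kept 6870000 of 119875187 Control epithelial-like sites, so the turned value rests on few sites. Rfx6 had 4.64 and 4.37 CPM (-0.09, -0.31 to 0.14), the only member with an epithelial-like interval that held 0. The intervals of the other 7 lay below 0, beside 78.6% of all promoters. A second Rfx4 start site had a peak only in MOF cKO (chr10:84838368-84839338), with 457 epithelial-like sites (2.22 CPM) and 0.404 CPM in fibroblast-like cells.

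**Figure D2:**
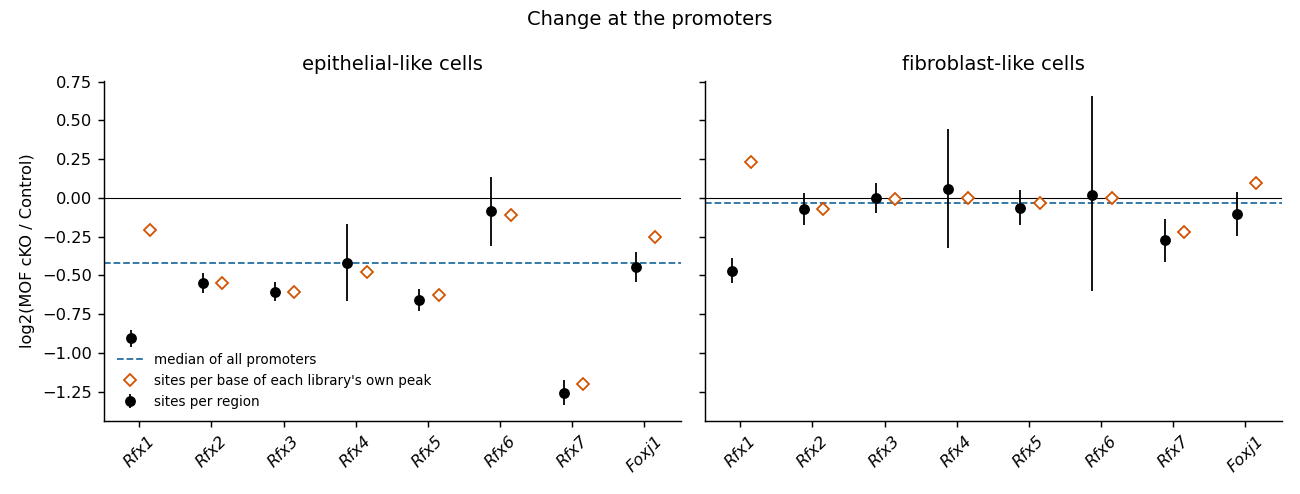
Log2 change (MOF cKO over Control) at the 8 member promoters in epithelial-like and fibroblast-like cells: black points are sites per region with 95% counting intervals, open diamonds are sites per base of each library's own peak, and the dashed line is the median of all promoters. Rfx7 lies lowest in epithelial-like cells at -1.25 and -1.20, and Rfx1 is the gene whose measures lie farthest apart, at -0.91 and -0.21.

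In fibroblast-like cells the median change over the 8 promoters was -0.07, beside -0.03 for all promoters. The intervals of 6 members held 0 and those of 2, Rfx7 and, by sites, Rfx1, lay below it, beside 18% of all promoters with an interval below 0. Fibroblast-like cells of the libraries also lay partly in different clusters, with 355 Control and 83 MOF cKO cells in cluster 8, 213 and 232 in cluster 7, 79 and 478 in cluster 3 and 6 and 451 in cluster 6. No member passed 2-fold in either direction, against backgrounds of 0.826% lower and 1.84% higher. In immune-like cells, with 48 Control cells, 7 members had a value and only Rfx1 had an interval off 0 by sites (188 and 134 CPM, -0.49, -0.73 to -0.25), beside 6.17% of all promoters with an interval below 0. Per base of each own peak Rfx1 turned to 0.21 there. Rfx5, active in antigen-presenting cells, had 57.4 and 75.7 CPM there (0.40, -0.01 to 0.83), Rfx3 68.7 and 78.6 CPM (0.19), Rfx2 85.3 and 95.3 CPM (0.16), Foxj1 34.1 and 35.5 CPM (0.06) and Rfx7 36.2 and 29.9 CPM (-0.28). Few immune-like cells in Control left these intervals wide. The class difference between epithelial-like and fibroblast-like changes was not tested, since each class came from the same 2 libraries.

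Because the genotypes held different epithelial-like clusters, member promoters were also set out cluster by cluster. Clusters 12 (Control) and 14 (MOF cKO), with median doublet scores of 0.86 and 0.92, were kept in this comparison. Every MOF cKO cluster (5 with cells enough) was below every Control cluster (3) at Rfx7 (Control 44.3 to 51.2 CPM, MOF cKO 17.3 to 36.1 CPM). The same held for Rfx2 (62.2 to 70.9 and 38.1 to 50.6 CPM) and for Rfx3 (63.5 to 67.6 and 38.0 to 56.6 CPM). It held too for Rfx5 (50.2 to 54.0 and 31.3 to 36.9 CPM), and by sites for Rfx1 (99.2 to 109 and 50.9 to 67.7 CPM). Divided by the peak widths of 1284 bp and 790 bp, the Rfx1 ranges of the genotypes overlap. Foxj1, Rfx4 and Rfx6 overlapped between the genotypes. By sites the separation was thus seen at 5 of 8 members, with Rfx1 among them, beside 32.2% of all promoters, also by sites. Only cluster 4 held many Control cells and more than a few MOF cKO cells (527 and 27), and there Rfx7 had 51.2 CPM in Control and 36.1 CPM in MOF cKO (24.0 to 52.2). The interval of those 27 cells overlapped Control intervals for Rfx3, Rfx5 and Rfx7. Among fibroblast-like clusters 1 of 8 members, Rfx1, was separate between genotypes, beside 3.7% of all promoters (122 to 128 and 87.0 to 97.8 CPM), again by sites over peaks of unequal width, and over the whole class its change per base had the opposite sign (0.23). Clusters of 1 library are not replicates, and whether the shift between clusters contributes to the differences was not tested.

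**Figure D3:**
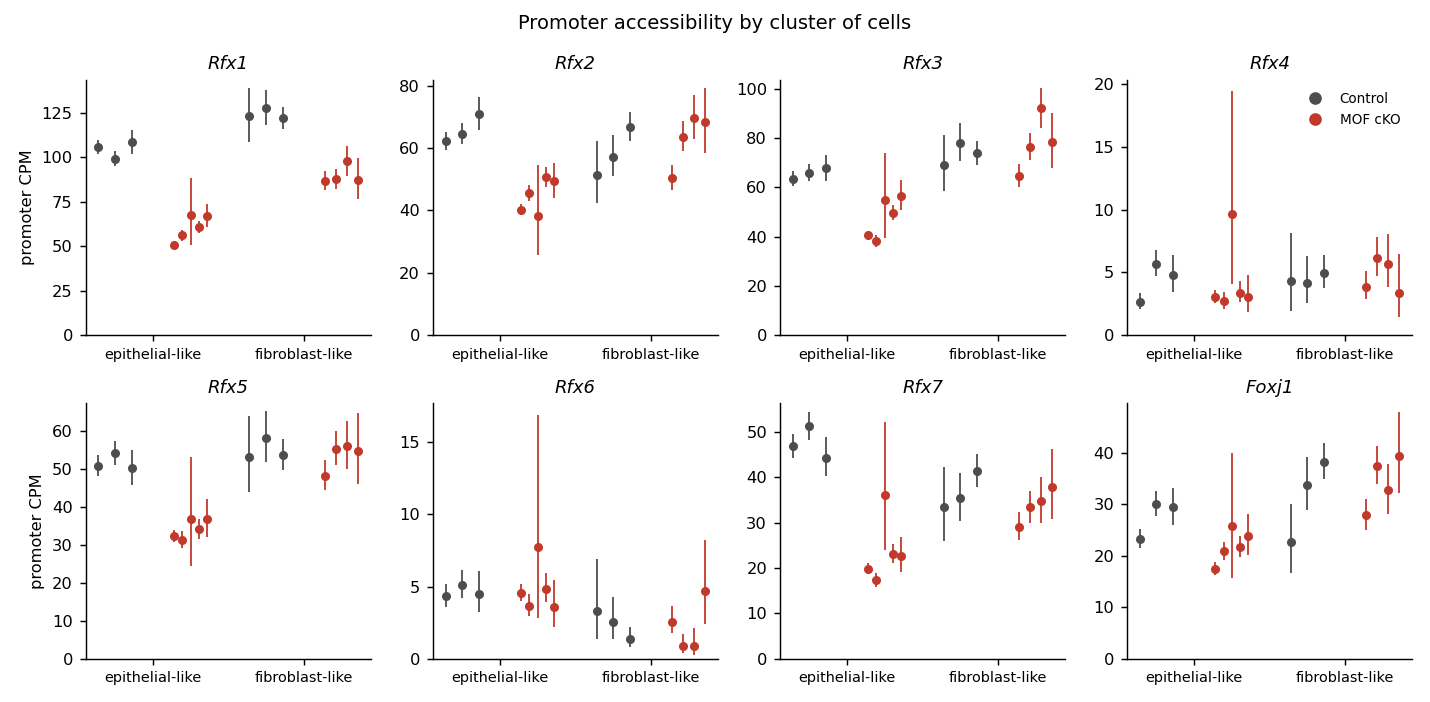
Promoter CPM of each gene in every epithelial-like and fibroblast-like cluster; a point is the summed cells of 1 library in 1 cluster and its bar the 95% counting interval. Among epithelial-like clusters the MOF cKO points lie below all Control points for Rfx1, Rfx2, Rfx3, Rfx5 and Rfx7, and the ranges overlap for Foxj1, Rfx4 and Rfx6. Among fibroblast-like clusters only Rfx1 is separate. Points are sites per region, the Rfx1 peak widths differed, and its epithelial-like ranges overlap once divided by width. By sites such a separation was found at 32.2% and 3.7% of all promoters in the 2 classes.

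The members also differed in where they were open. The Rfx6 promoter was most accessible in epithelial-like cells, with 4.64 CPM in Control against 1.87 CPM in fibroblast-like cells, and 0 sites in 48 immune-like cells (upper limit 3.81 CPM). In Control the Rfx7 promoter was highest in epithelial-like cells (48.0 CPM), and in MOF cKO it was lowest there of all 5 classes (20.1 CPM), with no overlap of intervals with the next class either time. In Control the wide interval of immune-like cells (25.2 to 50.3 CPM) overlapped that of epithelial-like cells. Rfx1 was highest in immune-like cells of both libraries, although in MOF cKO its interval overlapped that of endothelial-like cells (119 CPM). For Rfx5 and Foxj1 in Control, neighbouring classes in the order were within counting error of each other at the top.

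Inside the gene bodies, the shared regions summed to 73.2 CPM for Rfx2 in Control epithelial-like cells, against 56.1 CPM in fibroblast-like and 34.6 CPM in immune-like cells, with no overlap of intervals between neighbours. Much of this came from 1 intronic region 11012 bp from the gene start (chr17:56819549-56820453), with 21.8 CPM in Control epithelial-like cells against 1.06 CPM in fibroblast-like cells. It was singled out after its values were seen, and it had 21.0 CPM in MOF cKO epithelial-like cells (-0.05). A like region of Rfx3 (chr19:27904363-27905475), chosen in the same way, had 13.7 CPM in Control and 13.0 CPM in MOF cKO epithelial-like cells against 1.11 CPM in Control fibroblast-like cells. The Rfx2 peaks there were of nearly equal width (895 and 905 bp), whereas the Rfx3 peak was 863 bp in Control and 1089 bp in MOF cKO, and per base the Rfx3 region was at -0.41. Rfx4 was the opposite case across classes, with 79.1 CPM in Control and 80.0 CPM in MOF cKO immune-like cells and 44.0 and 29.6 CPM in epithelial-like cells.

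Of the 63 shared intragenic regions with a value in epithelial-like cells, 21 (33.3%) were lower by 2-fold or more, against a background of 13.4% of 95797 intragenic regions. A further 6 (9.52%) were higher by 2-fold or more, against 16.7%. The median log2 change was -0.44, beside -0.12 for all intragenic regions. With median-of-ratios scaling the counts were 13 lower (background 10.1%) and 6 higher (19.2%). In thinned cells they were 6 lower (background 10.8%) and 6 higher (24.8%) of 39. In fibroblast-like cells 5 of 57 (8.77%) were lower, near the background of 8.09%, and 1 (1.75%) was higher, against 10.5%. The lower regions were 9 of 19 in Rfx4, 6 of 21 in Rfx3, 2 of 5 in Rfx1, 2 of 10 in Rfx2 and 2 of 8 in Rfx7. Among these 5 genes, higher regions lay in Rfx3 (4) and Rfx4 (2). The change was below 0 in 49 of the 63 regions, beside 56.1% of all intragenic regions, and the medians were -0.93 for Rfx1 (5 of 5 lower), -0.88 for Rfx4 (14 of 19), -0.39 for Rfx3 (16 of 21), -0.28 for Rfx2 (8 of 10) and -0.14 for Rfx7 (6 of 8). In fibroblast-like cells 39 of the 57 regions were below 0 with a median of -0.35, beside 49.5% of all intragenic regions and a median of 0.01. The medians there were -0.64 for Rfx1, -0.54 for Rfx4, -0.64 for Rfx2 and -0.34 for Rfx7, and 0.15 for Rfx3, in which 4 of 15 regions were below 0. Summed over its shared regions Rfx3 went from 39.6 to 48.3 CPM in epithelial-like cells, the only gene body sum that was higher in MOF cKO there. That direction rested on 2 of its 21 regions, the neighbouring pair at 27816525 and 27819094 on chromosome 19, without which the sum went from 37.4 to 32.9 CPM. The sums went from 44.0 to 29.6 CPM for Rfx4, from 73.2 to 65.2 CPM for Rfx2, from 9.66 to 5.76 CPM for Rfx1 and from 10.4 to 9.91 CPM for Rfx7. Rfx5, Rfx6 and Foxj1 had no shared intragenic region.

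**Figure D4:**
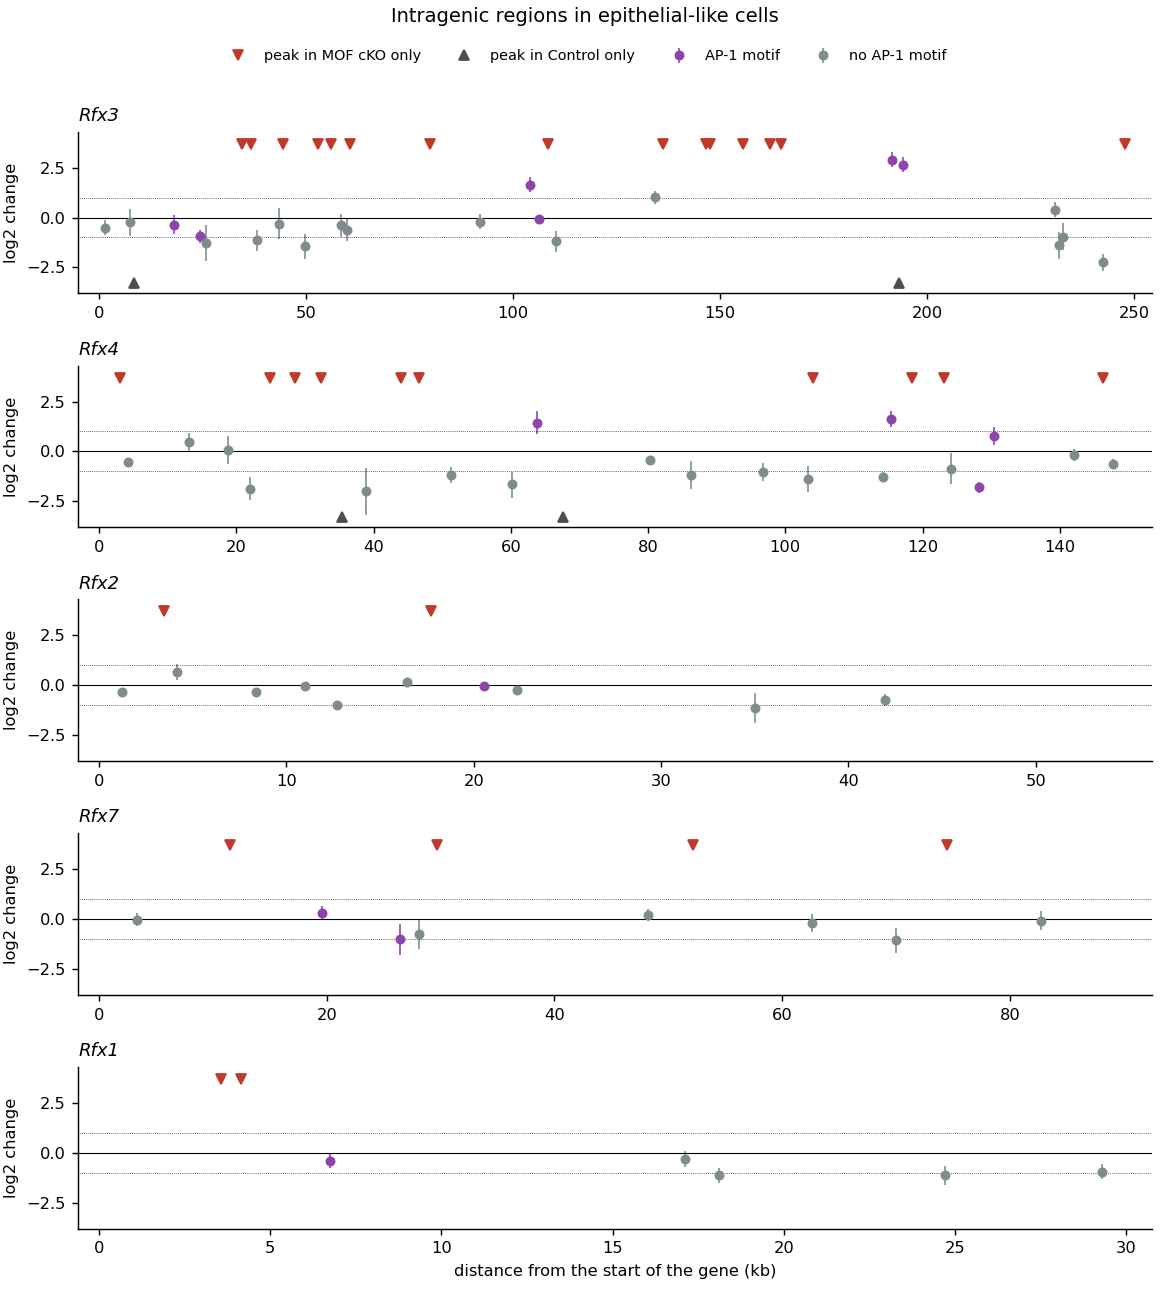
Log2 change in epithelial-like cells of each intragenic region of 5 genes against distance from the gene start in kb; bars are 95% counting intervals, dotted lines mark 2-fold, purple points hold an AP-1 motif, and triangles mark peaks called in only 1 library. A neighbouring pair of Rfx3 regions stands highest, at 2.90 and 2.65, and the lowest Rfx3 point is -2.25.

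Rfx3 held regions with large differences in both directions. A pair of intronic regions in the 3′ part of the gene had few sites in Control and many in MOF cKO epithelial-like cells. At chr19:27819094-27820048 there were 121 sites (1.04 CPM) in Control and 1606 (7.81 CPM) in MOF cKO, a log2 change of 2.90 (2.52 to 3.30). At chr19:27816525-27817453 there were 140 sites (1.21 CPM) and 1563 (7.60 CPM), a change of 2.65 (2.30 to 3.03). In cells thinned to 5000 sites these changes were 1.77 and 2.49. In fibroblast-like cells both intervals held 0, with changes of 0.05 and 0.68. A Control-only peak of 1.57 CPM (chr19:27817503-27818338) lay between them, so the peak boundaries there differed between libraries. Another region (chr19:27906709-27907616) went from 1.27 to 3.97 CPM (1.65, 1.28 to 2.02), with 147 sites in Control, and in thinned cells its change was 3.25. Thinning kept 6870000 of 119875187 Control epithelial-like sites, so the thinned values of these regions rest on few Control sites and set no order. Nearer the 3′ end, a region over an exon (chr19:27768188-27769289) went from 3.23 to 0.681 CPM (-2.25, -2.66 to -1.84), with a MOF cKO peak 0.837 of the Control width. In fibroblast-like cells it went from 2.65 to 4.11 CPM (0.63, 0.16 to 1.12), and across the alternatives that change ranged from 0.34 to 1.42.

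In Rfx4, 2 intronic regions were more open by 2-fold or more in MOF cKO epithelial-like cells. They were chr10:84871037-84871979 (1.05 to 3.19 CPM, 1.60, 1.20 to 2.02) and chr10:84819470-84820346 (0.553 to 1.47 CPM, 1.41, 0.86 to 2.01). The strongest region of the gene in Control epithelial-like cells, chr10:84883911-84884810, went from 6.68 to 1.91 CPM (-1.81, -2.06 to -1.55). Another, chr10:84777652-84778532, went from 1.40 to 0.384 CPM (-1.87, -2.45 to -1.30), but was far more open in immune-like cells, at 7.24 CPM in Control and 16.9 CPM in MOF cKO. Rfx4 therefore held regions that differed in both directions in one class.

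In Rfx1, Rfx2 and Rfx7 the single regions named had smaller changes as reported, although the median over regions was lowest in Rfx1 (-0.93). Rfx1 had 2 regions past 2-fold, chr8:84084465-84085426 (2.42 to 1.11 CPM, -1.13) and chr8:84091143-84091929 (1.53 to 0.705 CPM, -1.12). Per base of each library's own peak they were at -0.99 and -0.83. Across all alternatives they ranged from -1.66 to -0.97 and from -2.16 to -0.83. In Rfx2 the region past 2-fold with at least 200 sites was chr17:56817843-56818763 (5.62 to 2.80 CPM, -1.01), which fell short of 2-fold with median-of-ratios scaling (-0.86). Another with fewer sites (70 in Control and 57 in MOF cKO) was at -1.13. In Rfx7 both regions past 2-fold had fewer than 200 sites, and the largest change above that minimum was at chr9:72551371-72552364, with 1.61 and 1.98 CPM (0.29, -0.07 to 0.66).

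Stretches of the intronic Rfx3 and Rfx4 regions described above are shown because higher and lower regions differed in the AP-1 motif, the site bound by JUN and FOS proteins. Each is 121 bases long, read from GRCm38 on the plus strand (Rfx3 lies on the minus strand), and is centred on the AP-1 motif TGACTCA or its reverse TGAGTCA in capitals, or on the middle of the region where it has none.
Rfx3 higher, chr19:27819594-27819714: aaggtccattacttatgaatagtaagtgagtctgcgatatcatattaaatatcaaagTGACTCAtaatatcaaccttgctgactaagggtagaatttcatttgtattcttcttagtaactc
Rfx3 higher, chr19:27817002-27817122: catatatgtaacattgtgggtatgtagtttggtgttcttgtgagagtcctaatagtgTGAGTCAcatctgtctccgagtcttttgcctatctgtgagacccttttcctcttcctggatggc
Rfx3 higher, chr19:27907208-27907328: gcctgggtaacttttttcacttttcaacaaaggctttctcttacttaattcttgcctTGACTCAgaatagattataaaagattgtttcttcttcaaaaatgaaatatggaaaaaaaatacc
Rfx4 higher, chr10:84871317-84871437: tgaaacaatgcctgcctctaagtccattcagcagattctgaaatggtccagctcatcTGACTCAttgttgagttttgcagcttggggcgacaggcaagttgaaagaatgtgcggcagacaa
Rfx4 higher, chr10:84819818-84819938: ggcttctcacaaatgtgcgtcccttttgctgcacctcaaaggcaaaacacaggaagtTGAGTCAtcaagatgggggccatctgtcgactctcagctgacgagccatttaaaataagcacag
Rfx4 lower, chr10:84883989-84884109: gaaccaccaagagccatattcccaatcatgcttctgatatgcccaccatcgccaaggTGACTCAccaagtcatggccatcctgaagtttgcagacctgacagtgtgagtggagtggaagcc
Rfx4 lower, chr10:84778032-84778152: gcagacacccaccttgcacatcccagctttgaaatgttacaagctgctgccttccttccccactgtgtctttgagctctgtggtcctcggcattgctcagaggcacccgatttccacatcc

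An AP-1 motif was present in 5 of the 6 member regions that were higher by 2-fold or more, in 2 of the 21 lower ones and in 7 of the 36 within 2-fold. The same order held over all intragenic regions, where it was in 63.5% of higher, 9.58% of lower and 21.8% of other regions. Over the 63 member regions it was in 14 (22.2%), beside 27.1% of all intragenic regions. The sixth higher region, in Rfx3 at 134334 bp from the gene start (1.84 to 3.71 CPM, 1.01), had none, and the strongest lower Rfx4 region had one. The shares among members thus stood in the same order as those of intragenic regions at large.

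Peaks called in only 1 library were counted apart. Of the 104 intragenic member regions, 35 (33.7%) had a peak only in MOF cKO, beside 33.3% of all intragenic regions, and 6 (5.77%) only in Control, beside 9.74%. An AP-1 motif was in 18 of the 35 (51.4%), beside 43.1% of all such regions, and in 1 of the 6 (16.7%), beside 8.81%. Rfx3 held 15 of the MOF cKO peaks, Rfx4 10, Rfx7 4, Rfx1 and Rfx2 2 each, and Rfx5 and Rfx6 1 each. The strongest in epithelial-like cells in each of 3 genes were chr19:27848504-27849516 in Rfx3 (604 epithelial-like sites, 2.94 CPM), chr17:56812970-56813659 in Rfx2 (464 sites, 2.26 CPM) and chr10:84758681-84759494 in Rfx4 (464 sites, 2.26 CPM). That Rfx4 peak was more open in MOF cKO fibroblast-like cells, at 3.65 CPM. In epithelial-like cells the strongest of the others were at 0.938 CPM in Rfx1, 0.904 CPM in Rfx7 and 0.564 CPM in Rfx6. Another intronic Rfx1 peak (chr8:84070119-84070648) had 0.374 CPM there, 0.259 CPM in fibroblast-like cells and 142 sites (14.6 CPM) in immune-like cells of MOF cKO. In Control only, Foxj1 had a region over an exon with 1.80 CPM and Rfx5 one with 0.510 CPM. A peak absent from a list has no count in that library, so no fold is given, and the MOF cKO library had more cells and more sites.

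Genes of the pathways that these factors serve were measured at their promoters in epithelial-like cells. Lists were chosen with earlier results known, and each is described by its counts. Over all promoters, 85.7% were lower and 2.48% were lower by 2-fold or more. Primary cilium genes, which RFX factors activate, were lower in 36 of 37 with a median of -0.50, and 26 lay below the median of all promoters. Of these 1 was lower by 2-fold or more, Bbs1, a BBSome subunit (6.29 to 2.88 CPM, -1.13), and Ttc26, an intraflagellar transport gene, went from 15.5 to 7.76 CPM. Bbs5, another BBSome subunit, was at 0.04, with an interval that held 0, and Rpgrip1l, which shares its promoter region with Fto, at -0.15.

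Motile cilium genes, targets of FOXJ1 and RFX, had a median of -0.35 over 30 genes with a value, of which 24 were lower, 2 of them by 2-fold or more, and 12 lay below the median of all promoters (-0.42). Hydin, a central-pair protein, had the largest promoter change of the genes named here, from 8.59 to 2.62 CPM (-1.72, -1.94 to -1.50), and Ccdc65, a dynein regulatory subunit, went from 5.86 to 2.39 CPM (-1.29). Ccdc113 (0.27) and Cfap53 (0.40) were higher in MOF cKO. Regulators of multiciliation had a median of -0.34 over 18 genes, of which 13 were lower, 1 by 2-fold or more, and 7 lay below the median of all promoters. Gmnc, the geminin-like factor at the top of that programme, was higher, from 8.84 to 18.0 CPM (1.03, 0.89 to 1.17), and Noto, a homeobox factor, was at 0.48. Myb, a factor of the early steps, was lower, from 13.9 to 5.64 CPM (-1.30), with a MOF cKO peak 0.812 of the Control width. Jazf1 was at -0.97 by sites and at -0.43 per base, with a MOF cKO peak 0.686 of the Control width. By sites these genes had the same sign in fibroblast-like cells. Gmnc was at 0.66 (0.02 to 1.32) and Noto at 0.83 (0.08 to 1.64) there, from 59 and 41 Control sites. Myb was at -0.19 and Jazf1 at -0.32 there, and per base they turned to 0.11 and 0.22.

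The list of RFX5 partners and MHC class II targets had a median of -0.50 over 16 of its 17 genes, with 13 lower, 9 below the median of all promoters and 0 past 2-fold in either direction. Nfyc, a subunit of the CCAAT-binding factor, was at -0.64 and H2-Ob, an MHC class II chain, at -0.63. H2-DMb1 was at 0.19 and H2-Eb2 at 0.40, the latter with an interval that held 0. In fibroblast-like cells the 4 lists had medians of 0.02 (RFX5 list), -0.04 (multiciliation), -0.02 (motile cilium) and -0.06 (primary cilium), and 0 genes of any list passed 2-fold. In immune-like cells, with 48 in Control, the medians in the same order were -0.08, 0.09, 0.11 and -0.07, beside -0.02 for all promoters. By 2-fold or more, 1 of 16 genes of the RFX5 list and 2 of 37 of the primary cilium list were higher there. In the motile cilium list 3 of 23 were lower. The share of all promoters past 2-fold was not computed for immune-like cells.

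Likeness over the 8 profiles of class and library, as Pearson r of summed promoter and intragenic log2 CPM across 17138 genes, is given as a description, since all points share the 2 libraries. Each gene named was picked for the highest r of those 17138 over only 8 points, which favours high values. Rfx6 was most like Drc1 (0.992), a dynein regulatory gene, and Ovol2 (0.988), an epithelial transcription factor. Several Rfx6 profiles rest on few sites, with 0 in Control immune-like and 4 in MOF cKO endothelial-like cells. Rfx1 was most like Pradc1 (0.991) and Cct7 (0.989), and Rfx5 most like H2afz (0.990) and Mbtps2 (0.989). Foxj1 was most like Cbwd1 (0.988) and Dctn6 (0.986), and Rfx4 most like Ccdc71l (0.975) and Pgap2 (0.972). The remaining 3 members had lower values, Rfx2 with Setmar (0.931) and Hist1h2ae (0.914), Rfx3 with Tmem170b (0.939) and Hint3 (0.935), and Rfx7 with Tceal8 (0.934) and Hsd17b4 (0.930).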

How the data were processed

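The authors ran cellranger-atac 2.0.0 on the mm10 build, per the file headers and labels, and called peaks and cells in each library separately. The deposited values are raw counts of cut sites for each peak and barcode, with no normalization. Of the values, 88.8% and 91.6% were even, so intervals treat sites divided by 2 as fragments. Both peak lists were merged (1 bp overlap) and the 214119 regions with a peak in each library were compared. Barcodes with at least 1000 sites were kept (2481 Control, 4348 MOF cKO). The clustering used 50000 regions without those within 10000 bp of the members, 28 of 30 singular vectors, 20 neighbours and Leiden resolution 1, and classes were named from marker promoters with at least 3 markers 2-fold higher. Doublets were scored from simulated pairs over 50 neighbours but not removed, except in one alternative. Features needed 20 sites over both libraries. Intervals were exact Poisson for CPM and exact conditional binomial for ratios.

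The members, the pathway lists and the tests were chosen with earlier results of these data known. Named genes were the 8 members, for each the intragenic regions past 2-fold with at least 200 epithelial-like sites (up to 4, else the 1 with the largest change), the strongest peak called in 1 library, the 2 genes of highest r, and from each list the 2 lowest and 2 highest promoters in epithelial-like cells. Of regions below 200 sites, and of strong regions in Rfx2 and Rfx3, values were given after they were seen. Alternatives changed the scaling, the cells kept, doublets, thinning to 5000 sites, the overlap, the site minimum and the promoter window of 100 and 1000 bp. Counts per base of each library's own peak were added after seeing the data. No column of another sample was used. The calculation was tested on simulated data. Software versions were bedtools 2.31.1, matplotlib 3.10.9, pysam 0.24.0, leidenalg 0.10.2, python-igraph 0.11.9, scikit-learn 1.9.0, scipy 1.17.1, pandas 2.3.3, numpy 2.4.6 and Python 3.11.15.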

Additional observations from a re-analysis of the deposited data

Results flagged for a closer look

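A pair of Rfx3 regions on chromosome 19 had changes of opposite sign in the 2 classes. The region from 27768188 to 27769289 was at -2.25 in epithelial-like cells and at 0.63 in fibroblast-like cells, and the region from 27777933 to 27778696 was at -0.96 and 0.99. Each class had 1 library per genotype, so the difference between classes was not tested.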

How the results depend on the processing

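Of the alternative values for the summary results, 46 stayed within the limits set for them and 12 moved. Those 46 include promoter changes relative to all promoters under other scalings of depth, which such scaling cannot move. In epithelial-like cells the count of intragenic regions lower by 2-fold or more, 21 as reported, was 13 with median-of-ratios size factors (background 10.1%) and 6 of 39 in cells thinned to 5000 sites (background 10.8%). In fibroblast-like cells that count, 5 as reported, was 13 of 57 by sites per cell (background 14.6%), 10 of 56 without the cells of highest doublet score (8.98%), 3 of 19 in thinned cells (7.78%) and 3 of 30 with a minimum of 100 sites (5.67%). The 1 higher region in fibroblast-like cells became 0 with the total of all own peaks (background 9.52%), by sites per cell (6.19%), with a minimum of 100 sites (8.57%) and per base of each own peak (9.94%). The median of member promoters relative to all promoters, -0.16 and -0.04 as reported, was -0.054 in epithelial-like and 0.096 in fibroblast-like thinned cells, and per base of each own peak it was -0.088 and 0.035, so its sign in fibroblast-like cells turned under both. Of the members below the median of all epithelial-like promoters, 6 as reported, there were 4 in thinned cells, 5 per base of the own peak and 7 with a window of 1000 bp. Among single genes and regions 325 values stayed and 42 moved. The causes were not tested. With 1 library per genotype no library could be left out. No paired analysis was possible because each genotype had 1 library, so no result came from a test.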
